A study of Mus musculus with 5 samples.

Results

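Metallothioneins and the antioxidant enzymes controlled by the transcription factor NRF2 were followed in the iridocorneal angle, the ring of tissue between iris and cornea that drains aqueous humor from the eye. The set was named by symbol and holds Mt1, Mt2, Hmox1, Nqo1, Gclc, Gclm, Txnrd1, Slc7a11, Srxn1 and Gpx3. These are 10 of the 56941 gene identifiers in the deposited count table, and all 10 were among the 19713 genes that reached at least 10 counts in at least 1 pool. The rule names them by symbol and uses no measured value, but the set was proposed with earlier results of these data known. The libraries comprised 3 pools of DBA/2J and 2 pools of Gpnmb+ angle tissue from untreated mice aged 12 months, labelled as male and female for the series as a whole. DBA/2J mice carry a stop mutation in Gpnmb, which encodes a melanosomal and lysosomal membrane glycoprotein, and a Tyrp1 b allele that alters a melanin enzyme, and with age they develop iris disease and pigmentary glaucoma. Gpnmb+ mice are the DBA/2J substrain with a working Gpnmb allele, and they keep the Tyrp1 b allele. Each pool was described as the dissected angles of 3 mice with some remnants of iris and ciliary body, while the library names list 3 animals for each DBA/2J pool and 2 for each Gpnmb+ pool.

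Metallothioneins are small proteins whose many cysteines bind zinc, copper and cadmium. Their genes are induced by metals through the factor MTF1 and also by glucocorticoids, by STAT3 signalling and by oxidants. NRF2, encoded by Nfe2l2, is held at a low level by KEAP1, which passes it to a CUL3 ubiquitin ligase. Oxidants and electrophiles modify KEAP1, and NRF2 then pairs with small MAF proteins on antioxidant response elements in front of genes for glutathione synthesis, thioredoxin reduction, quinone reduction and heme breakdown. Aqueous humor contains hydrogen peroxide, and glutathione and catalase are known to clear it in the tissues it bathes.

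Between 43900661 and 49837758 reads were counted on genes per pool, so 1 read was worth 0.0197 to 0.0233 CPM, the read count scaled to a common library size after edgeR's TMM correction. Gpnmb was covered by 1946 to 2234 reads in DBA/2J and by 110568 and 129659 in Gpnmb+, so the libraries match their genotype labels. Of 6 trabecular meshwork markers, 5 were matched, and their summed level was 3207 to 3639 CPM in DBA/2J and 4399 to 4405 CPM in Gpnmb+. The pools were not alike in sex, and none of the labels gives the sex of a pool. The methods of the study describe more males than females among the mice of each genotype. Reads of the Y-linked Ddx3y numbered 3608, 4168 and 1567 in the DBA/2J pools against 0 and 4 in the Gpnmb+ pools, and those of Xist, the RNA of the inactive X chromosome, numbered 596, 0 and 2417 against 7843 and 9152. The Gpnmb+ pools thus held next to no Y-linked RNA, which conflicts with the males described for them, and DBA/2J pool 2 held no Xist. Sex and genotype therefore cannot be told apart in any comparison given here. Pool 1 of DBA/2J stood apart in immediate early RNA, with a summed level of 2103 CPM over 10 genes against 285 to 447 CPM in the other pools, and in acute phase RNA, with 1983 CPM over 9 genes against 340 to 654 CPM. Pool 2 of Gpnmb+ stood apart in photoreceptor RNA, with 1838 CPM over 6 markers against 338 to 826 CPM elsewhere. Nonpigmented ciliary epithelium markers summed to 2160 to 2604 CPM over 11 genes in DBA/2J and to 1370 and 912 CPM in pools 1 and 2 of Gpnmb+. In bulk tissue, fewer cells of a type and less RNA per cell cannot be told apart.

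Promoter windows are shown for Slc7a11, Txnrd1 and Gclm, which were chosen with their levels known. They had more RNA in each DBA/2J pool than in either Gpnmb+ pool. Over all genes, the pools did not overlap, in either direction, for 34.5%. Each of the windows shown holds a sequence that stress-responsive factors are known to bind. Windows of Mt1, Mt2 and Srxn1, with a metal response element, are not shown. Those of Nqo1 and Gpx3, which matched none of the motifs searched, are not shown either. A link between sequence and level was not tested. Each window is the 250 bases before the annotated canonical start in the GRCm39 reference, which comes from another mouse strain, and it is written 5′ to 3′ on the strand of the gene. Capitals mark TGATGCAA, an element of C/EBP and ATF factors, in the Slc7a11 window at chr3:50398064-50398313 on the minus strand, where it occurs 2 times, on opposite strands, 65 and 46 bases before the start. Capitals mark an antioxidant response element in the Txnrd1 window at chr10:82694763-82695012 and in the Gclm window at chr3:122038876-122039125, both on the plus strand.
Slc7a11: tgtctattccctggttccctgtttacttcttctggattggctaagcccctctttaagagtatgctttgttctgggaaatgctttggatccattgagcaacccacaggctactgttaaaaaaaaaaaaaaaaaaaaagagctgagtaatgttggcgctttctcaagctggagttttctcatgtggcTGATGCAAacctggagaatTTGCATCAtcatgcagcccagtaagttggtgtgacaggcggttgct
Txnrd1: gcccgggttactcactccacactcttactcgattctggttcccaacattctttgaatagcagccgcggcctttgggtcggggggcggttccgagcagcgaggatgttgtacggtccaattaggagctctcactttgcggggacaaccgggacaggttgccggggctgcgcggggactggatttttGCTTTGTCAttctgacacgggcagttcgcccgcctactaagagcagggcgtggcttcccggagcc
Gclm: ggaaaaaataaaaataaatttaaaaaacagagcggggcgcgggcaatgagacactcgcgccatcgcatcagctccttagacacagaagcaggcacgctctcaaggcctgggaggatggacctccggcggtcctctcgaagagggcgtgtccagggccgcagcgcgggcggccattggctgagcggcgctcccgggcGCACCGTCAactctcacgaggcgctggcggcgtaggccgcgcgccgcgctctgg
The antioxidant response element was searched as TGACNNNGC and the metal response element as TGCACNC or TGCGCNC, all motifs on both strands. TGATGCAA was found in 0.888% of the 21738 windows of this length, the antioxidant response element in 9.68% and the metal response element in 21.9%. Of the 8 members scanned, Slc7a11 alone held TGATGCAA, and Gclm and Txnrd1 held the antioxidant response element. The metal response element was found 2 times in the window of Mt2 and 1 time each in those of Mt1, Srxn1 and Gclm, where its match GGGCGCA overlaps the antioxidant response element. A match is a string of letters and not a measured binding site, and Hmox1 and Gclc were not scanned.

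Across the 10 members, none passed the test for a difference between the genotypes, and Slc7a11 came nearest. A gene was called at a Benjamini-Hochberg adjusted p of at most 0.05 in edgeR's quasi-likelihood test over all genes, with a fold change of at least 1.5. By this rule 157 of 19713 genes were called, which is 0.796%, of which 99 were higher in DBA/2J (0.502% of genes tested) and 58 lower (0.294%). The count among the members was 0 of 10, and DESeq2's Wald test called 1 of 10, Slc7a11, beside 4.7% of all genes. At an unadjusted p of at most 0.05 and without the fold minimum, Slc7a11, Txnrd1 and Hmox1 passed, 3 of 10 beside 15.9% of all genes. The pools of the 2 genotypes did not overlap for Slc7a11, Txnrd1, Hmox1 and Gclm, 4 of 10 beside 34.5% of all genes, and all 4 were higher in DBA/2J. The estimate was above 0 for 7 of 10 members, beside 47.4% of all genes, and the median log2 fold change, written as DBA/2J minus Gpnmb+ throughout, was 0.16 over the members and -0.02 over all genes.

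**Figure D1:**
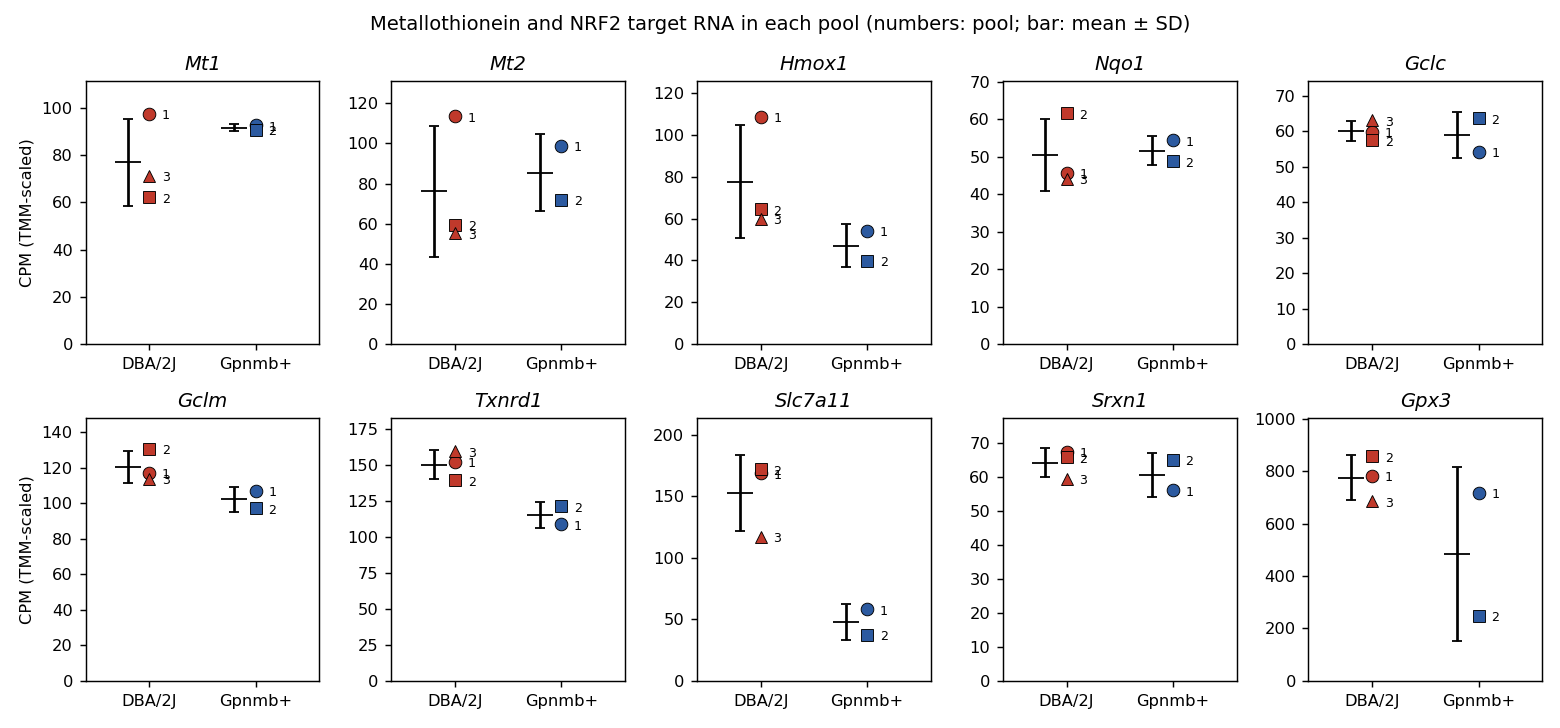
Level of each member in each pool, as TMM-scaled CPM on axes that start at 0, with 3 DBA/2J pools in red and 2 Gpnmb+ pools in blue, pool numbers beside the points, and the mean with its SD to the left. Slc7a11 lies at 117 to 172 CPM in DBA/2J and at 37.5 and 58.3 CPM in Gpnmb+, whereas the pools of Mt1, Mt2, Nqo1, Gclc, Srxn1 and Gpx3 overlap.

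Slc7a11 encodes xCT, the cystine importer that supplies cysteine for glutathione and, in pigment cells, for pheomelanin. The gene lies at chr3:49846975-50398070 on the minus strand. Its read counts were 7500, 7380 and 5214 for DBA/2J against 2957 and 1832 for Gpnmb+, or 169, 172 and 117 CPM against 58.3 and 37.5 CPM. The lowest DBA/2J pool was above the highest Gpnmb+ pool, and Gpnmb+ pool 2 was the lowest of all. The mean was 153 ± 30.9 CPM (SD, n = 3) in DBA/2J and 47.9 ± 14.7 CPM (SD, n = 2) in Gpnmb+, a 3.19-fold difference. The log2 fold change was 1.67 with a standard error of 0.26, a 95% interval of 1.05 to 2.30 and an adjusted p of 0.0543, just outside the threshold. With any pool left out, the log2 fold change stayed between 1.39 and 2.03, and the adjusted p ran from 0.0504 to 0.184. DESeq2 called the gene at an adjusted p of 1.27e-08, limma-voom at 0.0487 and edgeR without a count minimum at 0.0182. With the replicate number as a block, edgeR called it at an adjusted p of 0.0337. The call thus changed with the tool and, within edgeR, with the count minimum and the block.

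Markers of several cell types differed between the genotypes beside Slc7a11. Over all genes tested, 0.796% were called, 15.9% passed an unadjusted p of 0.05 in edgeR and 47.4% had positive estimates. Of 11 ciliary epithelium markers, 3 were called, all higher in DBA/2J, 10 had positive estimates, and the summed level did not overlap. Within DBA/2J, pool 3 had the highest ciliary sum and the lowest Slc7a11, while pool 2 was slightly above pool 1 in both. Within Gpnmb+, pool 2 was below pool 1 in both. Of 8 macrophage markers, 0 were called, 1 passed an unadjusted p of 0.05 in edgeR and 7 had positive estimates, with a median log2 fold change of 0.19. Their summed level, most of it Lyz2, overlapped, at 3015 to 4119 CPM in DBA/2J against 2904 and 3783 CPM. Of 7 pigment cell markers, 5 had negative estimates and 1 was called, Slc45a2, a melanosomal transporter, which fell by 2.46 on the log2 scale in DBA/2J (adjusted p = 0.0262). The pigment cell sum, most of it Dct, overlapped, at 2625 to 3647 CPM against 2954 to 3413 CPM. Sums did not overlap for 6 Schwann cell markers (163 to 215 CPM in DBA/2J against 276 to 329.7 CPM, 2 called lower), 5 endothelial markers (397 to 508 CPM against 380.1 to 394 CPM, 0 called) and 8 skeletal muscle markers (197 to 443 CPM against 133 to 190.0 CPM, 0 called). The trabecular meshwork sum given above did not overlap either, with 4 of 5 tested markers lower in DBA/2J and 0 called. Nor did the low sum of 6 lens markers (5.78 to 7.89 CPM in DBA/2J against 3.23 to 5.52 CPM, 0 called). None of the markers in these lists was at or under 3 reads in all pools. The part of any of these cells in the Slc7a11 difference was not tested. Slc3a2, the heavy chain that joins xCT at the cell surface, was at 335, 298 and 303 CPM in DBA/2J and at 230 and 236 CPM in Gpnmb+. Its groups did not overlap, with a log2 fold change of 0.42 and an adjusted p of 0.112. DESeq2 gave Slc3a2 an adjusted p of 0.000996, for a fold under the 1.5-fold minimum.

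The catalytic and modifier subunits of glutamate-cysteine ligase, Gclc and Gclm, which make the first step of glutathione synthesis, were close in both genotypes. Gclm (chr3:122039126-122065061) was at 117, 131 and 114 CPM in DBA/2J and at 107 and 97.2 CPM in Gpnmb+. Its groups did not overlap but lay near each other, with means of 120.4 ± 8.90 CPM (SD, n = 3) and 102 ± 7.02 CPM (SD, n = 2). The log2 fold change of Gclm was 0.24 with a standard error of 0.10 (adjusted p = 0.319.) Gclc (chr9:77661797-77701770) was at 59.8, 57.4 and 63.1 CPM in DBA/2J and at 54.2 and 63.6 CPM in Gpnmb+, with both the lowest and the highest value in Gpnmb+. Its log2 fold change was 0.03, with a 95% interval of -0.22 to 0.27 and an adjusted p of 0.921, so a 1.5-fold difference lies outside the interval. The ratio of Gclc to Gclm reads was 0.511, 0.440 and 0.555 in DBA/2J against 0.506 and 0.654 in Gpnmb+. These ratios overlapped between the genotypes. Gclm shares 492 exon bases with the pseudogene Gm6061 and 869 with the antisense RNA Gm17494, which had at most 11 and 21 reads in any pool.

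Txnrd1, the cytosolic thioredoxin reductase, lies at chr10:82669785-82733546. It was at 152, 139 and 160 CPM in DBA/2J and at 109 and 121 CPM in Gpnmb+. Every DBA/2J pool was above both Gpnmb+ pools, with means of 150.4 ± 10.3 CPM (SD, n = 3) and 115 ± 8.83 CPM (SD, n = 2). The log2 fold change was 0.38 with a standard error of 0.10, a 95% interval of 0.14 to 0.62 and an adjusted p of 0.149, a fold of 1.31. DESeq2 gave an adjusted p of 0.0177 for a fold still under the 1.5-fold minimum. Srxn1, sulfiredoxin, repairs peroxiredoxins whose active cysteine has been overoxidized, and its gene lies at chr2:151947436-151957687. It was at 67.4, 65.8 and 59.5 CPM in DBA/2J and at 56.0 and 65.1 CPM in Gpnmb+. The groups overlapped, with a log2 fold change of 0.08, a 95% interval of -0.17 to 0.34 and an adjusted p of 0.745.

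Nqo1, the NAD(P)H quinone reductase that is often used as the reference NRF2 target, lies at chr8:108113835-108129934. It was at 45.7, 61.6 and 44.2 CPM in DBA/2J and at 54.4 and 48.8 CPM in Gpnmb+. The Gpnmb+ values lay inside the DBA/2J range, and the log2 fold change was -0.03, with a 95% interval of -0.43 to 0.37 and an adjusted p of 0.948. Leaving out single pools turned the sign of the estimates for Nqo1, Gclc and Srxn1, all of them close to 0.

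Hmox1, heme oxygenase 1, opens the heme ring to release iron, carbon monoxide and biliverdin, and is repressed by BACH1 as well as induced by NRF2. The gene lies at chr8:75820241-75827217. Its read counts were 4830, 2766 and 2675 for DBA/2J against 2753 and 1947 for Gpnmb+, or 109, 64.4 and 60.0 CPM against 54.3 and 39.8 CPM. The groups did not overlap, though DBA/2J pools 2 and 3 lay close to Gpnmb+ pool 1, and DBA/2J pool 1 stood well above the rest. The means were 77.7 ± 26.9 CPM (SD, n = 3) and 47.0 ± 10.2 CPM (SD, n = 2), and the log2 fold change was 0.72 with a 95% interval of 0.01 to 1.44 and an adjusted p of 0.307. Without DBA/2J pool 1, the pool with the high immediate early and acute phase RNA, the log2 fold change was 0.40 at an adjusted p of 0.432. The part of that RNA in the level of Hmox1 was not tested.

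**Figure D2:**
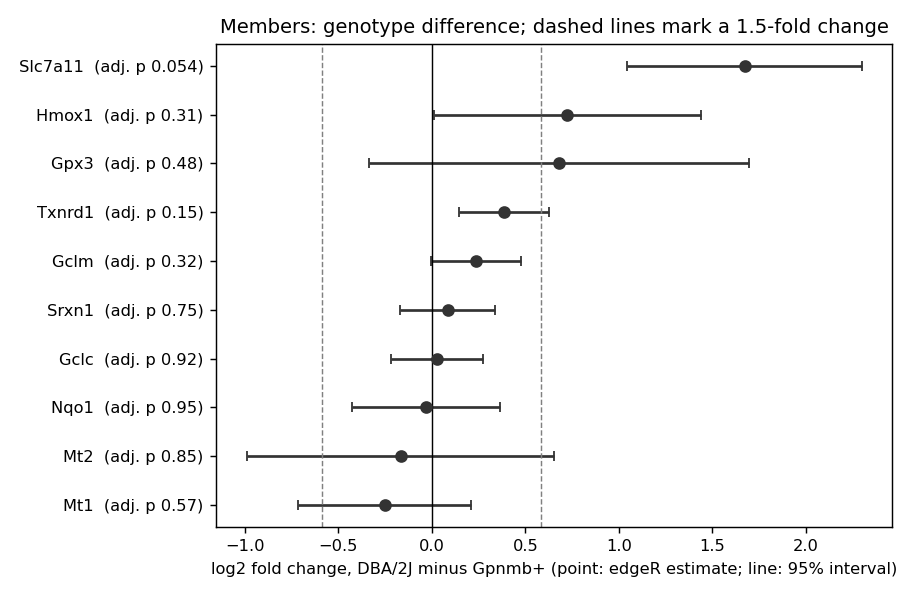
Difference between the genotypes for each member, as the edgeR log2 fold change (DBA/2J minus Gpnmb+, points) with its 95% interval (lines), with dashed lines at a 1.5-fold change and the adjusted p beside each name. The interval of Slc7a11, from 1.05 to 2.30, lies wholly beyond the dashed line, and the other 9 reach it or fall inside the lines.

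Gpx3, a secreted selenium-dependent glutathione peroxidase that is abundant in plasma and extracellular fluids, had the highest level of the members. The gene lies at chr11:54793279-54802424. Its read counts were 34741, 36773 and 30537 for DBA/2J against 36371 and 12179 for Gpnmb+, or 781, 857 and 685 CPM against 717 and 249 CPM. Gpnmb+ pool 1 lay within the DBA/2J range, and Gpnmb+ pool 2 was 2.88 times lower than pool 1. The log2 fold change was 0.68 with a 95% interval of -0.34 to 1.70 and an adjusted p of 0.482. It was 0.11 without Gpnmb+ pool 2 (adjusted p = 0.852) and 1.64 without Gpnmb+ pool 1 (adjusted p = 0.0355, a call), so the estimate is set by which Gpnmb+ pool is used. Gpnmb+ pool 2 also had the lowest ciliary epithelium sum, 912 CPM, and the highest photoreceptor sum, 1838 CPM, of the 5 pools, and their part in the low Gpx3 value was not tested. Of the 3062 exon bases of Gpx3, 2603 are shared with the antisense gene Tnip1. Tnip1 had 3087 to 3484 reads in the 5 pools, and since no source states whether counting used the strand, reads of the overlap are uncertain.

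The metallothioneins Mt1 and Mt2 are neighbours on chromosome 8, at chr8:94905710-94906955 and chr8:94898819-94900207. Mt1 had 4332, 2665 and 3175 reads in DBA/2J against 4696 and 4435 in Gpnmb+, or 97.4, 62.1 and 71.2 CPM against 92.6 and 90.7 CPM. DBA/2J pool 1 was above both Gpnmb+ pools and the other two DBA/2J pools were below them. The means were 76.9 ± 18.4 CPM (SD, n = 3) and 91.6 ± 1.33 CPM (SD, n = 2), with a log2 fold change of -0.25, a 95% interval of -0.71 to 0.21 and an adjusted p of 0.570.

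Mt2 had 5048, 2552 and 2465 reads in DBA/2J against 5017 and 3516 in Gpnmb+, or 114, 59.5 and 55.3 CPM against 98.9 and 71.9 CPM. Pool 1 of each genotype was the higher for this gene, and the other two DBA/2J pools were the lowest of the 5. The log2 fold change was -0.17 with a standard error of 0.34 (adjusted p = 0.850.) Without DBA/2J pool 1 the log2 fold changes were -0.46 for Mt1 (adjusted p = 0.207) and -0.57 for Mt2 (adjusted p = 0.303), and without Gpnmb+ pool 1 that of Mt2 was 0.09. The ratio of Mt1 to Mt2 reads was 0.858, 1.04 and 1.29 in DBA/2J against 0.936 and 1.26 in Gpnmb+, so the pools 1 held more Mt2 than Mt1 and the others more Mt1 than Mt2. Of the 950 exon bases of Mt2, 783 are shared with the antisense RNA Gm45774, which had 19 to 33 reads.

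Per kilobase of exon, the order of the members was led by Gpx3 and the metallothioneins. Averaged over the 5 pools, Gpx3 stood at 215 CPM per kilobase, Mt2 at 84.0, Mt1 at 66.4, Hmox1 at 37.2, Txnrd1 at 19.2, Nqo1 at 18.5, Gclm at 14.2, Gclc at 9.51, Slc7a11 at 7.13 and Srxn1 at 6.68. Neighbours in this order overlapped in their ranges over the pools, except Hmox1 over Txnrd1 (lowest pool 22.6 against highest pool 22.5) and Gclm over Gclc (12.2 against 10.1). By group means, Slc7a11 held rank 2 of the members in CPM in DBA/2J and rank 9 in Gpnmb+, and per kilobase rank 8 and rank 10. The exons of Slc7a11 sum to 15522 bases, while the metallothionein exons sum to 1246 bases for Mt1 and 950 for Mt2. These lengths count every base that is an exon in any annotated transcript, which for Mt1 is the whole gene span. Levels and order per kilobase therefore depend on the annotation.

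**Figure D3:**
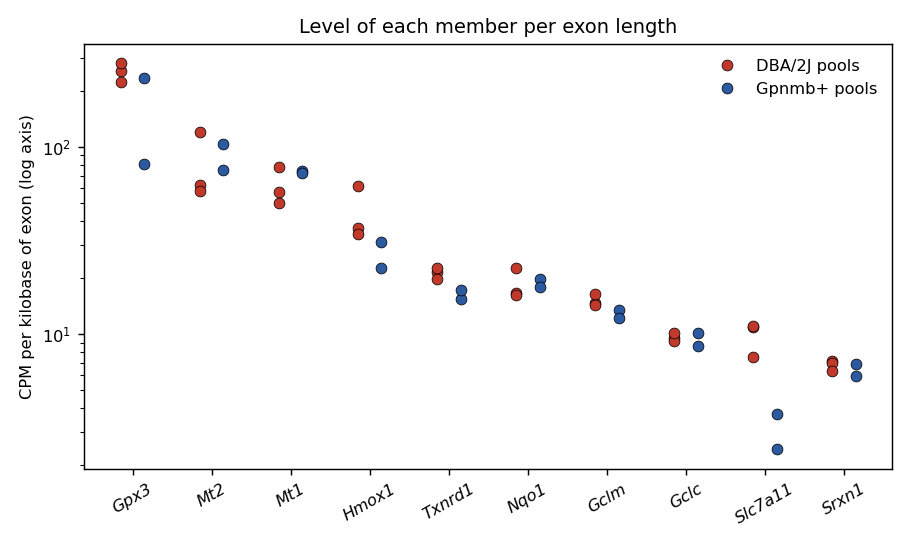
Level of each member as CPM per kilobase of exon on a log axis, ordered by the mean over the 5 pools, with DBA/2J pools in red and Gpnmb+ pools in blue. Levels run from 215 for Gpx3 to 6.68 for Srxn1 as means, and the low Gpx3 point at 81.3 is Gpnmb+ pool 2.

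The members differed in how much they varied over the 5 pools. The range of log2 CPM was 2.20 for Slc7a11, 1.78 for Gpx3, 1.45 for Hmox1 and 1.04 for Mt2, against a median of 0.57 and an upper quartile of 1.10 over all genes tested. It was 0.23 for Gclc, 0.27 for Srxn1, 0.42 for Gclm and 0.48 for Nqo1, all under that median, and 0.55 for Txnrd1 and 0.65 for Mt1, on either side of it. DBA/2J pool 1 had the highest value of the 5 pools for Hmox1, Mt1, Mt2 and Srxn1, and Gpnmb+ pool 2 the lowest for Slc7a11, Hmox1, Gpx3 and Gclm.

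**Figure D4:**
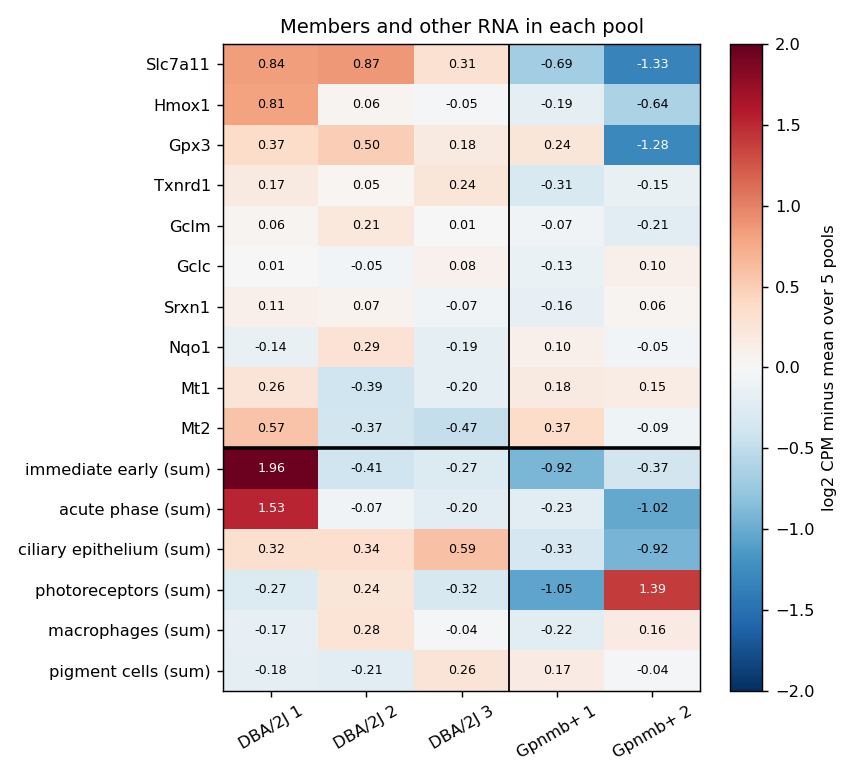
Log2 CPM of each member, and of summed marker or response lists, minus the mean over the 5 pools, with pools in columns, red for values above the mean and blue for values below it. Slc7a11 runs from 0.87 in DBA/2J pool 2 to -1.33 in Gpnmb+ pool 2, and Hmox1 (0.81), Mt2 (0.57), immediate early RNA (1.96) and acute phase RNA (1.53) are highest in DBA/2J pool 1.

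Estimates for the RNA of NRF2 and the factors around it were small, though not all were precise. Protein amount and activity of NRF2, which KEAP1 controls, cannot be read from RNA. NRF2, its partners and its regulators comprised 11 genes, all tested, of which 0 were called or reached an unadjusted p of 0.05 in edgeR, 5 had positive estimates, and the log2 fold changes ran from -0.17 to 0.16. Nfe2l2 itself was at 129, 136 and 123 CPM in DBA/2J and at 148 and 143 CPM in Gpnmb+. It was lower in every DBA/2J pool, with a log2 fold change of -0.17 and an adjusted p of 0.383. Sqstm1, the autophagy adaptor p62 that draws KEAP1 away from NRF2, had a log2 fold change of 0.16 (adjusted p = 0.428). That of Nfe2l1, the related factor NRF1, was 0.10 (adjusted p = 0.654). The 95% interval of Maff, a small MAF gene named after its values were seen, ran from -0.85 to 1.09. A 1.5-fold difference lies inside that interval.

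Of 20 further textbook NRF2 targets, 0 were called, 10 had positive and 10 negative estimates, and their median log2 fold change was 0.01. The ferritin heavy chain Fth1 (-0.02) and the glutathione transferase Gsta4 (-0.22) had the highest levels. The largest estimates were those of the glutathione transferase Gstm1, 0.45 at an adjusted p of 0.255, and of the glutathione reductase Gsr, 0.44 at an adjusted p of 0.124. Gsr was at 95.6, 81.9 and 81.0 CPM in DBA/2J and at 62.4 and 64.5 CPM in Gpnmb+, without overlap. DESeq2 gave Gsr an adjusted p of 0.00897, for a fold under the 1.5-fold minimum. At an unadjusted p of at most 0.05, 4 of the 20 passed (20%, beside 15.9% of all genes), and they went both ways: Gsr and Gstm1 were higher in DBA/2J, and Gstp1 (-0.31) and Ephx1 (-0.37), named here after their values were seen, were lower.

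The enzymes that use glutathione and thioredoxin gave few differences. Of 11 genes of glutathione synthesis, reduction, breakdown and peroxidation, 0 were called and 8 had positive estimates. Gpx1 and Gpx4, the cytosolic and the phospholipid hydroperoxide glutathione peroxidase, had log2 fold changes of 0.0046 and 0.0077 (adjusted p = 0.986 and 0.979). Chac1, which breaks glutathione down, had the lowest estimate, -0.32 (adjusted p = 0.661). Of 14 thioredoxins, reductases, peroxiredoxins and sestrins, 0 were called and 9 had positive estimates. Prdx2, a cytosolic peroxiredoxin, was at 223, 231 and 231 CPM in DBA/2J and at 178 and 154 CPM in Gpnmb+. Its log2 fold change was 0.46 at an adjusted p of 0.0995. DESeq2 gave Prdx2 an adjusted p of 0.000723, for a fold under the 1.5-fold minimum. Prdx1 had 0.22 (adjusted p = 0.397) and Txnip, the thioredoxin inhibitor, -0.26 (adjusted p = 0.729).

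Among the 3 superoxide dismutases and catalase, 0 of 4 were called. Sod3, the extracellular superoxide dismutase, was at 453, 362 and 348 CPM in DBA/2J and at 261 and 168 CPM in Gpnmb+, and the groups did not overlap. Its log2 fold change was 0.86 with a standard error of 0.22 (adjusted p = 0.148.) DESeq2 called Sod3, at an adjusted p of 0.00461. The log2 fold changes of the cytosolic Sod1 and mitochondrial Sod2 were 0.00 and 0.12.

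Of 9 genes of heme breakdown and iron handling, 1 was called. Cp, ceruloplasmin, the copper ferroxidase that loads iron onto transferrin, had 99090, 75965 and 60220 reads in DBA/2J against 28500 and 19685 in Gpnmb+. It rose in DBA/2J, with a log2 fold change of 1.89, a standard error of 0.26 (adjusted p = 0.0479.) The call was lost with any of the 5 pools left out, at adjusted p from 0.0657 to 0.187, while the log2 fold change stayed between 1.67 and 2.15.

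**Figure D5:**
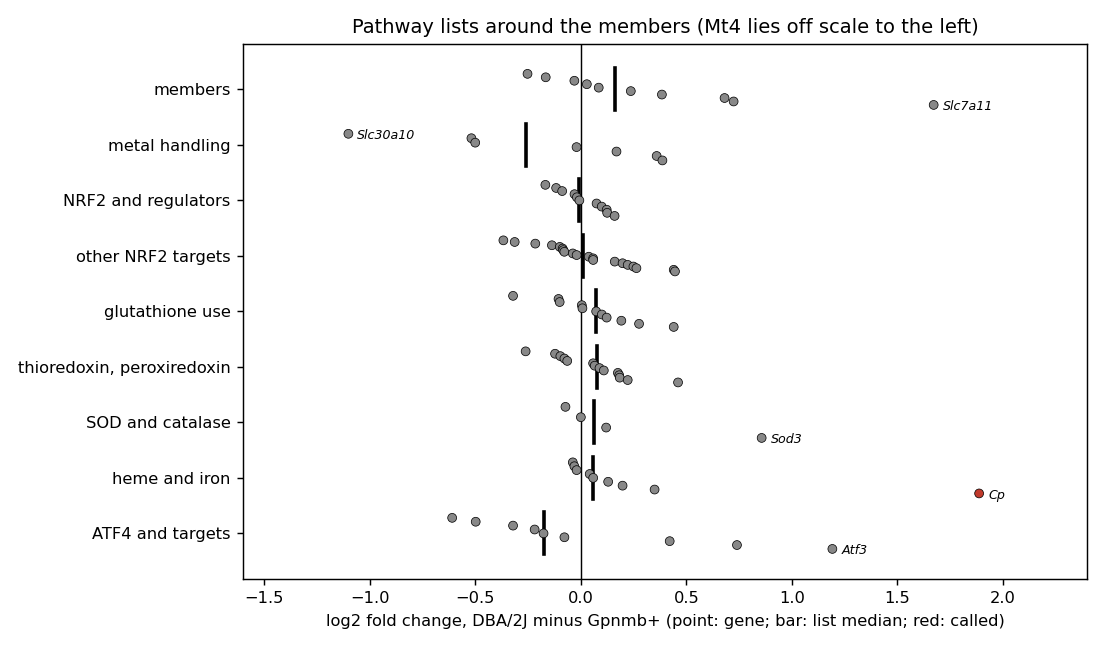
Log2 fold change (DBA/2J minus Gpnmb+) of every tested gene in the members and in 8 related lists, 1 point a gene, with a bar at the median of each list and called genes in red. Cp at 1.89 is the called gene, Slc7a11 lies at 1.67, and the medians of NRF2 with its regulators and of the other NRF2 targets lie at -0.01 and 0.01.

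Metal handling was followed in 8 genes besides Mt1 and Mt2, of which 0 were called and 3 had positive estimates. Mt3, the metallothionein known from brain, was at 5.08, 4.68 and 4.91 CPM in DBA/2J and at 6.82 and 7.20 CPM in Gpnmb+. It was lower in every DBA/2J pool, with a log2 fold change of -0.52 and an adjusted p of 0.165. Mt4, known from stratified epithelium, had 14 reads in Gpnmb+ pool 1 and 0 in the other 4 pools, so no fold is given. The zinc importers Slc39a8 and Slc39a10 had log2 fold changes of -0.50 (adjusted p = 0.550) and 0.39 (adjusted p = 0.131), and Mtf1, the metal sensor, of -0.02 (adjusted p = 0.945). Mt4 and Mtf1 were named for their roles, outside the rule for named genes and after their values were seen.

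ATF4, which is known to drive Slc7a11 through the C/EBP and ATF element shown in its window, was followed with 8 of its target genes. Of these 9 genes 0 were called, 3 had positive estimates, and the median log2 fold change was -0.18. Atf4 was at 86.0, 58.5 and 86.5 CPM in DBA/2J and at 79.9 and 99.3 CPM in Gpnmb+, overlapping, with a log2 fold change of -0.22 (adjusted p = 0.643). Asns, asparagine synthetase, had 0.74 (adjusted p = 0.550) and Atf3 had 1.19 (adjusted p = 0.459), with 137 CPM in DBA/2J pool 1 and 23.1 to 36.7 CPM in the other pools. Ddit3 and Trib3, stress targets named after their values were seen, were lower in every DBA/2J pool, at -0.61 (adjusted p = 0.224) and -0.50 (adjusted p = 0.255).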

How the data were processed

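Reads were trimmed (fastp) and aligned to GRCm39 (STAR) by the authors, who deposited the raw read count per gene. Whether counting used the strand is not given in the sources used here. Every column was mapped to a sample. Symbols, positions, exon lengths and start sites came from GENCODE mouse release M39, which held 56323 of the 56941 identifiers; promoter letters came from GRCm39. Genes reaching 10 counts in 1 pool or more were tested with edgeR 4.0.16 (R 4.3.3) after TMM scaling, with genotype alone in the model. Called genes had a Benjamini-Hochberg adjusted p up to 0.05 and changed 1.5-fold or more. Standard errors and intervals came from the same fit, whose common biological coefficient of variation was 20.7%. Scripts were tested on simulated data. Alternatives used DESeq2 1.42.0, ashr 2.2.63 and limma 3.58.1, other filters, thresholds and scaling, the replicate number as a block, and each pool left out. An exact permutation test of 3 against 2 pools cannot go below p = 0.2. P-values set the genotype difference against the spread between pools, moderated over genes, and each pool averages over mice.

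The members and lists were chosen with earlier results of these data known. Named genes were the members, the called genes of each list, otherwise the 2 of highest mean CPM and the 2 of largest absolute log2 fold change with at least 50 mean counts, and the 5 genes nearest in profile to the metallothioneins; exceptions are marked as such. Glutathione, thioredoxin, iron and ATF4 lists share some genes. Of the marker and response lists, Chil1 was not matched and Mip did not reach the count minimum.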

Additional observations from a re-analysis of the deposited data

How the results depend on the processing

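Of all genes tested, 157 were called, and the number was 165 with DESeq2's size factors, 158 with filterByExpr, 190 with limma-voom, 360 without a count minimum, 927 with DESeq2's Wald test, 734 with ashr moderation and 1710 at unadjusted p-values. Leaving out a pool gave 1 (DBA/2J pool 2) up to 217 (Gpnmb+ pool 1), with 6, 17 and 2 without DBA/2J pool 1, DBA/2J pool 3 and Gpnmb+ pool 2. Without a Gpnmb+ pool, the lone Gpnmb+ pool was assumed to vary like the DBA/2J pools. Called members, 0 in the main edgeR fit, numbered 1 with DESeq2, ashr, limma-voom or no count minimum (Slc7a11 each time). They numbered 0 with any DBA/2J pool left out and 2 at unadjusted p-values (Slc7a11 and Hmox1). Members with positive estimates numbered 7 to 8 with a pool left out and 7 otherwise. With a pool left out, log2 fold changes ran from -0.57 to 0.086 for Mt2 (0.020 without DBA/2J pool 3), from -0.20 to 0.058 for Nqo1, from -0.079 to 0.15 for Gclc and from -0.017 to 0.20 for Srxn1, so the sign of these 4 is not settled. With the replicate number as a block, called genes numbered 220 and called members 1, Slc7a11 (1.86, adjusted p = 0.0337), and the estimates were 0.044 for Nqo1 and -0.0035 for Gclc. Hmox1 and Tsc22d3 then each had an adjusted p of 0.0528. Deviations of same-numbered pools correlated at 0.28 and 0.25 over genes, and nothing in the labels says that a number marks shared animals or days, so this replicate block is not a paired design. For the changes of call the cause was not tested. The depth was not limiting for the members, which had at least 1832 reads in every pool, and the 5 pools set the precision.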

Other observations

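Glucocorticoid response genes, which share inducers with the metallothioneins, gave 1 called gene of 9, beside 0.796% of all genes. Tsc22d3, which encodes the glucocorticoid-induced leucine zipper protein GILZ, had 2330, 2494 and 2554 reads in DBA/2J against 4446 and 4390 in Gpnmb+. It fell by 0.67 on the log2 scale in DBA/2J, with an adjusted p of 0.0382 in edgeR's quasi-likelihood test. The call was lost with any pool left out, at adjusted p from 0.0690 to 0.160. The gene lies on the X chromosome, and sex and genotype cannot be told apart in these pools. Of the 9 genes, 3 had positive estimates and the median log2 fold change was -0.07.

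Acute phase genes, whose STAT3 signalling is also known to induce metallothioneins, gave 0 called genes of 9. At an unadjusted p of at most 0.05 in edgeR 3 passed, and 9 had positive estimates. Over all genes tested, 15.9% passed that p and 47.4% had positive estimates. Lcn2, lipocalin 2, had 54304, 11304 and 6104 reads in DBA/2J against 7792 and 1339 in Gpnmb+, with an adjusted p of 0.357. Il6 had 458, 15 and 36 reads against 11 and 8, with an adjusted p of 0.293. Immediate early genes gave 0 called genes of 10, 1 at an unadjusted p of at most 0.05 in edgeR and 10 positive estimates. That gene, Egr1, had 24216, 3218 and 3350 reads in DBA/2J against 1292 and 1907 in Gpnmb+, without overlap. Its adjusted p was 0.267. Jun had 9266, 4443 and 5076 reads against 4500 and 5084, overlapping in CPM, with an adjusted p of 0.445. Nr4a1 had 16658 reads in DBA/2J pool 1 and 237 to 420 in the other 4 pools, with an adjusted p of 0.352. Both lists were led by that pool, which also had the highest Mt1, Mt2 and Hmox1 levels, and whether these are related was not tested.

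The tested genes nearest to the mean profile of Mt1 and Mt2 over the 5 pools, by root mean square difference of centred log2 CPM, were 4930599N23Rik (0.0337), Pemt (0.0371), Gm14270 (0.0590), Frmd8os (0.0630) and Gm14681 (0.0637). Mt1 and Mt2 themselves lay 0.116 from it. With 5 pools this ordering is a description only.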
